A study of Mus musculus with 22 samples.

Results

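The regions described here are 200 autosomal bins of 1 Mb of the mouse genome in which 5-hydroxymethylcytosine (5hmC) was lowest in the brain, referred to as 5hmC deserts. They were chosen by their measured 5hmC: of 2470 autosomal bins, 2413 had a level above 0 in all 9 TAB-seq libraries, the level was averaged within each tissue and then over the 3 tissues, and the 200 bins with the lowest average were taken. The other 57 bins were listed at 0 in every library, and all 57 lay in the first 3 Mb of an autosome. Without read counts, a 0 there is not taken as a measured absence of 5hmC. The samples were whole cerebral cortex without the hippocampus, whole olfactory bulb and whole cerebellum of female C57BL/6 mice at 8 weeks of age, with no treatment or genetic change in any group. TAB-seq, which reads 5hmC alone, was done on 3 libraries per tissue, and oxBS-seq, which reads 5-methylcytosine (5mC) alone, on 3 cortex libraries and on 2 libraries each of olfactory bulb and cerebellum. Replicates of a tissue came from independent mice, and the 6 RNA-seq libraries of the study were not analysed here. A level is the fraction of cytosine signal at CpG sites of a bin, from 0 to 1. The files give no read counts, so the depth behind a level is unknown. A lower level in all cells and a smaller share of cells with the mark cannot be told apart in whole tissue.

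5hmC is made from 5mC by the TET dioxygenases, which oxidize the methyl group. Neurons carry more of it than most other cell types, and it is densest in the bodies of transcribed genes and at enhancers. Most of the mouse genome outside those places is intergenic sequence and the remains of transposable elements. A smaller part is made of tandem arrays of recently duplicated genes, such as those of odorant and pheromone receptors, antimicrobial peptides and antigen receptors, which are silent in most brain cells.

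One oxBS-seq library stood apart. Cortex replicate 3 had a mean 5mC level of 0.715 in the deserts against 0.743 and 0.738 in the other cortex libraries, and of 0.652 against 0.676 and 0.679 in the other autosomal bins. The cortex 5mC values below are given with it, and the levels and counts that it moved are also given without it.

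The promoters of 6 genes in the deserts are shown because they illustrate the CpG-poor starts that most desert genes shared. Each is the RefSeq sequence (GRCm38.p6) from 250 bases before to 50 bases after the annotated start, written on the strand of the gene, with each CG in capitals. The genes are Olfr609, an odorant receptor (chr7:103492827-103493126, minus strand), Vmn1r202 and Vmn2r95, pheromone receptors of the vomeronasal organ (chr13:22502196-22502495, minus strand, and chr17:18423854-18424153, plus strand), Defa20, an antimicrobial peptide of the gut (chr8:21509008-21509307, plus strand), Cyp2c39, a cytochrome P450 enzyme (chr19:39347096-39347395, plus strand), and Zfp58, a zinc finger protein (chr13:67500473-67500772, minus strand).
Olfr609: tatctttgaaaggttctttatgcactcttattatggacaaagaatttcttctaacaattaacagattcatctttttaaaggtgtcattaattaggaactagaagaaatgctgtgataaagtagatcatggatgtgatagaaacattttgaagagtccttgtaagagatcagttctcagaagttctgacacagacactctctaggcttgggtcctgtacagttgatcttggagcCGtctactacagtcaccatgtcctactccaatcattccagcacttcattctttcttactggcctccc
Vmn1r202: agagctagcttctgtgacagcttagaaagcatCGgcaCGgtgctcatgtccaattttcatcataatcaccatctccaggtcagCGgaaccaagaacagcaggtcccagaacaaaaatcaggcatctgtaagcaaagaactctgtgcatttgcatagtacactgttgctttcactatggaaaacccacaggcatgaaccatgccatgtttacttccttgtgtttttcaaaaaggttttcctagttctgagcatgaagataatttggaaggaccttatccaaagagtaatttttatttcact
Vmn2r95: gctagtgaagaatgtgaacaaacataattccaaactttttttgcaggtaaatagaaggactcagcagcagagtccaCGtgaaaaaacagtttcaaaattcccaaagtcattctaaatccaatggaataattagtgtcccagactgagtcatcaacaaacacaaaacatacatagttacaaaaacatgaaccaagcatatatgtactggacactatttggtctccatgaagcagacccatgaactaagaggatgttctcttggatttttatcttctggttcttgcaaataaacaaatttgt
Defa20: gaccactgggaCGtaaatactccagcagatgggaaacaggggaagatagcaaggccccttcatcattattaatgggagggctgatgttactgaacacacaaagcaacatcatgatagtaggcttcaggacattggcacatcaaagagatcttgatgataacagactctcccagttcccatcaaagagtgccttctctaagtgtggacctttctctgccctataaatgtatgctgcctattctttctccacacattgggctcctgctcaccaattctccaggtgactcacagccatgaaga
Cyp2c39: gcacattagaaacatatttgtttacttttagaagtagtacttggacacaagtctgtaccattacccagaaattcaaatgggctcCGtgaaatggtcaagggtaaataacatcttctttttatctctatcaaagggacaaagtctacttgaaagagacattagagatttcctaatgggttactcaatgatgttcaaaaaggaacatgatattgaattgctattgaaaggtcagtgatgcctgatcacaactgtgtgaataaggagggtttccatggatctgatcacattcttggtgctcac
Zfp58: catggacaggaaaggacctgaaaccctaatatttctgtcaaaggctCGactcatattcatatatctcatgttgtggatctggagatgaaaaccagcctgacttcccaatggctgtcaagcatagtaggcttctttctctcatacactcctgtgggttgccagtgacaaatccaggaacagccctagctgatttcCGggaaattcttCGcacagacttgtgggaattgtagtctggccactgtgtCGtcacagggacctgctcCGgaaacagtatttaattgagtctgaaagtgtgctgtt

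Olfr609, Vmn2r95, Defa20 and Cyp2c39 each held 1 CG in these 300 bases, Vmn1r202 held 3 and Zfp58 held 5. A promoter was found in RefSeq for 1810 of 2410 protein-coding genes of the deserts (75.1%) and for 13877 of 18370 genes of the other autosomal bins (75.5%), with genes that share a symbol counted once. The CG dinucleotide was counted on 1 strand, since it reads the same on the other. The median was 2 per promoter in the deserts and 17 elsewhere. No CG was found in 20.9% of desert promoters, in 2.65% of the others and in 4.76% of all autosomal protein-coding promoters. At least 10 were found in 13.3% of desert promoters and in 66.0% of the others. The family medians were 1 for odorant receptors, for both kinds of vomeronasal receptors, for defensins and for secretoglobins. The zinc finger genes of the deserts differed from these, with a median of 9 and with 10 or more in 47 of 100 promoters.

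Within the deserts the mean 5hmC level was 0.0761 ± 0.0052 in cortex, 0.0542 ± 0.0033 in the olfactory bulb and 0.0335 ± 0.0015 in cerebellum (SD, n = 3 libraries each). The other 2213 autosomal bins had 0.178 ± 0.010, 0.159 ± 0.0045 and 0.105 ± 0.0019. These levels chose the bins and are given as a description with no test. The deserts held between 42.5% and 43.4% of the level of the other bins in the cortex libraries, between 32.5% and 34.9% in the olfactory bulb libraries and between 30.7% and 32.9% in the cerebellum libraries.

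The deserts were not uniform. The 50 lowest bins had mean 5hmC levels of 0.0318 in cortex, 0.0217 in the olfactory bulb and 0.0177 in cerebellum, and the 50 ranked 151 to 200 had 0.107, 0.0804 and 0.0457. A level under 0.02 was reached by 14 deserts in cortex, 29 in the olfactory bulb and 38 in cerebellum, and by 0 of the other 2213 bins in any tissue. The 20 lowest bins had nearly the same level in each library, with library medians from 0.0117 to 0.0194. No correction for incomplete conversion was made, so how much of a level this low is 5hmC is unknown. Of the 200 bins, 183 were also among the 200 lowest of cortex alone, 185 among those of olfactory bulb alone and 152 among those of cerebellum alone.

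The lowest bin of all was chr7:22000001-23000000, which held 27 protein-coding genes, most of them Vmn1r pheromone receptors such as Vmn1r139 and Vmn1r143. Its 5hmC levels were 0.0154, 0.0160 and 0.0190 in the cortex libraries, 0.0110, 0.0149 and 0.0138 in the olfactory bulb and 0.0128, 0.0145 and 0.0146 in cerebellum. The cortex libraries lay above all others, and those of olfactory bulb and cerebellum overlapped. These levels were not corrected for incomplete conversion, and whether the tissues differ in 5hmC itself here was not tested. Of the 10 lowest bins, 8 lay on chromosome 7. Besides further Vmn1r and Vmn2r arrays, these held Scgb2b24 and other secretoglobins of the androgen-binding protein group (chr7:33000001-34000000 and chr7:32000001-33000000) and the oocyte genes Nlrp4e and Nlrp5 (chr7:23000001-24000000). The remaining 2 were chr5:94000001-95000000, with AA792892 and unnamed gene models, and chr4:113000001-114000000, with Skint5 and Skint6, relatives of the gene that selects skin γδ T cells in the thymus. In the Skint bin the libraries read 0.0188, 0.0196 and 0.0189 in cortex, 0.0116, 0.0160 and 0.0125 in the olfactory bulb and 0.0122, 0.0148 and 0.0141 in cerebellum. The deserts nearest the threshold were chr3:113000001-114000000 with an average of 0.0805, chr9:5000001-6000000 with 0.0809, chr6:41000001-42000000 with 0.0810, chr6:129000001-130000000 with 0.0811 and chr13:68000001-69000000 with 0.0811. Just outside were chr5:61000001-62000000 with 0.0815, chr14:53000001-54000000 with 0.0816, chr3:16000001-17000000 with 0.0817, chr11:15000001-16000000 with 0.0819 and chr13:21000001-22000000 with 0.0819.

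**Figure D1:**
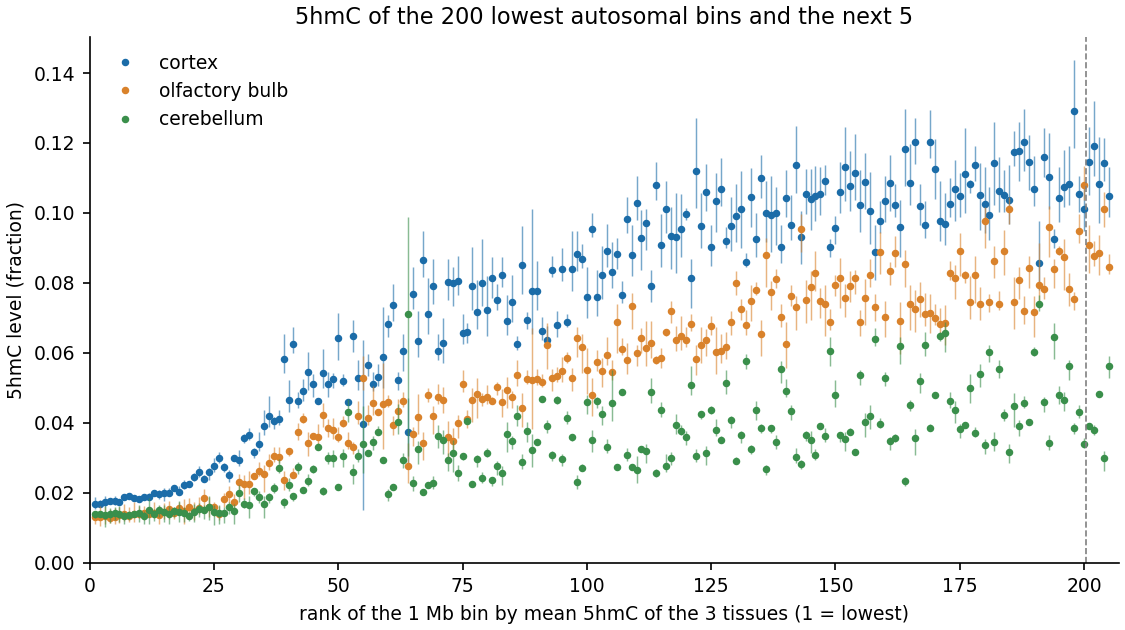
5hmC level (fraction) of the 200 deserts and of the next 5 bins, right of the dashed line, against their rank; points are means of 3 libraries of a tissue and bars their lowest and highest library. The 3 tissues draw together at the lowest ranks, where 5hmC lies near or under 0.02, and separate toward rank 200, where cortex is mostly highest and cerebellum lowest.

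Cortex had the highest measured 5hmC in most deserts. Every cortex library exceeded every olfactory bulb library in 184 of 200 deserts (92%), against 67.2% of all ranked bins. Every cortex library exceeded every cerebellum library in 195 deserts (97.5%, also 97.5% of all ranked bins). Olfactory bulb exceeded cerebellum without overlap in 157 deserts (78.5%), against 93.1% of all ranked bins. Among the 50 lowest bins the last order held in 18, and in 32 the libraries of olfactory bulb and cerebellum overlapped. The median ratio of cortex to cerebellum was 1.61 in the 50 lowest bins, 2.22 over all deserts and 1.76 in the other autosomal bins. The 5hmC levels chose these bins and were not corrected for incomplete conversion, so nothing is read from the counts or ratios.

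The ratio of cerebellum to cortex 5hmC varied between single deserts. The highest ratio of cerebellum to cortex, 1.90, was in chr17:39000001-40000000, which holds Esp15 and other genes for secreted pheromone peptides. Its 5hmC levels were 0.0471, 0.0272 and 0.0381 in cortex, 0.0342, 0.0263 and 0.0229 in the olfactory bulb and 0.0306, 0.0840 and 0.0988 in cerebellum. Cerebellum replicates 2 and 3 were high and replicate 1 lay within the cortex range. The next ratios were 0.939 in chr7:17000001-18000000, with the placental glycoprotein genes Psg16 and Psg29, and 0.866 in chr11:3000001-4000000, with Osbp2 and Limk2. The lowest ratio, 0.197, was in chr1:8000001-9000000, which holds the single protein-coding gene Sntg1, a syntrophin of neurons. There the libraries read 0.117, 0.130 and 0.108 in cortex, 0.0789, 0.0894 and 0.0876 in the olfactory bulb and 0.0219, 0.0233 and 0.0246 in cerebellum, with no overlap between tissues. An immunoglobulin kappa bin without a protein-coding gene in the annotation, chr6:69000001-70000000, had a ratio of 0.235, with cortex from 0.0816 to 0.0950 and cerebellum from 0.0194 to 0.0210. The next ratio, 0.237, was in the gene-free bin chr1:102000001-103000000.

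The 19 autosomes held between 2 and 35 deserts each. Chromosome 7 held 35 of them, 24.5% of its ranked bins, chromosome 17 held 16 (17.4%), chromosome 13 held 15 (12.7%), chromosome 4 held 16 (10.4%) and chromosome 3 held 15 (9.55%), where 8.29% of all ranked autosomal bins were deserts. Chromosome 18 had 2 and chromosome 11 had 4. Of the 47 ranked bins of chromosome 7 below 50 Mb, 26 were deserts, and these included 15 of the 50 lowest. Adjacent deserts formed 110 runs. In all, 140 of the 200 bins (70%) lay in 50 runs of 2 or more, and 60 stood alone. In the first 8 Mb of the autosomes 18 of 95 ranked bins were deserts (18.9%), and in the last 5 Mb 13 of 111 (11.7%).

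The longest runs differed in their genes. The first, of 9 bins, was chr7:7000001-16000000, with 114 protein-coding genes, of which 28 were Vmn2r and 25 Vmn1r receptors, 16 germ-line genes such as those of the Obox and Zscan4 families, 13 zinc finger genes and 8 sulfotransferases. Its mean 5hmC was 0.0352 in cortex, 0.0274 in the olfactory bulb and 0.0237 in cerebellum. The second, of 6 bins, was chr17:18000001-24000000, with 29 Vmn2r, 14 Vmn1r and 24 zinc finger genes, and had 0.0522, 0.0377 and 0.0315. Another run of 6 bins was chr17:36000001-42000000, with 49 odorant receptors near the major histocompatibility region, and had 0.0715, 0.0495 and 0.0428. A run of 5 bins was chr6:129000001-134000000, where 27 lectin-like receptor genes of natural killer and myeloid cells adjoin 24 bitter taste receptors, and had 0.0589, 0.0445 and 0.0279. Of the 6 runs of 4 bins, chr7:20000001-24000000, with 64 Vmn1r receptors, had the lowest levels, 0.0177, 0.0132 and 0.0143. The run chr4:144000001-148000000, with 19 zinc finger genes among 51, had 0.0547, 0.0392 and 0.0334, and chr13:65000001-69000000, with 24 among 52, had 0.0787, 0.0657 and 0.0385. The run chr2:86000001-90000000, with 183 odorant receptors among 188 genes, had 0.0812, 0.0434 and 0.0263. The last 2, chr14:41000001-45000000 with 82 genes and chr14:3000001-7000000 with 84, held no gene of a listed family and had 0.0730, 0.0452 and 0.0244 and 0.106, 0.0685 and 0.0408.

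Both marks changed within 1 Mb of the edge of a run. Averaged over both sides of the 110 runs, the outermost desert bin had 5hmC of 0.0834 in cortex, 0.0603 in the olfactory bulb and 0.0363 in cerebellum, and the next bin outside had 0.155, 0.131 and 0.0890. The second bin outside had 0.174, 0.152 and 0.102, close to the levels of the other autosomal bins. The step in 5hmC follows from the choice of the bins. For 5mC, which did not enter the choice, the outermost desert bin had 0.733 ± 0.015 in cortex (SD, n = 3), 0.763 ± 0.0020 in the olfactory bulb (n = 2) and 0.753 ± 0.011 in cerebellum (n = 2). The next bin outside had 0.674 ± 0.014, 0.708 ± 0.0025 and 0.727 ± 0.012. The cortex levels without replicate 3 were 0.742 and 0.683. The step in 5mC at the outermost bin was therefore steep in cortex and olfactory bulb and smaller in cerebellum, opposite in sign to that of 5hmC in each tissue. Deeper inside, in the longer runs only, cerebellum 5mC was 0.722 ± 0.0085 at 2 Mb and 0.709 ± 0.0095 at 3 Mb, under the 0.727 just outside. Cortex had 0.726 and 0.718 there, above its 0.674 outside.

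**Figure D2:**
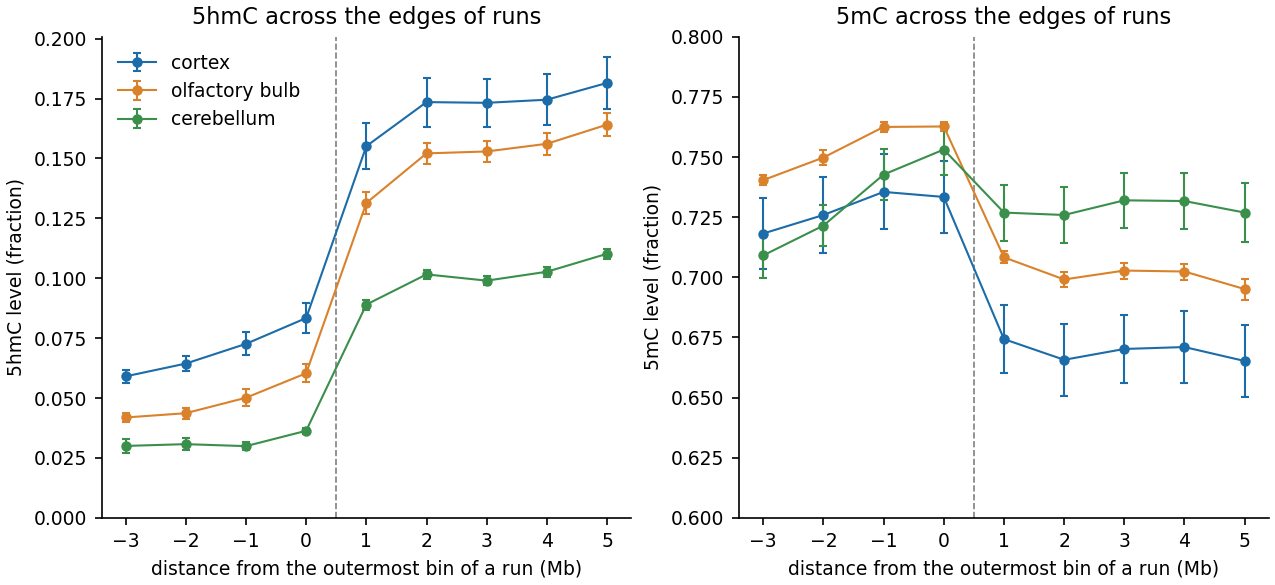
Mean 5hmC (left) and 5mC (right) level against the distance in Mb from the outermost desert bin of a run (0), with positive distances outside and negative distances inside; points are means of the libraries of a tissue and bars their SD. 5hmC steps up by 1 Mb outside the run in each tissue, while 5mC steps down in cortex and olfactory bulb and less so in cerebellum; short runs count from both ends.

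Gene families differed widely in the share of their genes that lay in deserts. Gene midpoints placed 2412 of 20807 autosomal protein-coding genes (11.6%) in the deserts. For the 5 listed families of chemosensory-type receptors the share was 997 of 1537 (64.9%), for the 5 neuronal families 0 of 242, and for genes of no listed family 1007 of 17937 (5.61%). The neuronal count depended on the number of bins taken: with the 400 lowest bins it was 66 of 242 (27.3%), when 16.1% of all protein-coding genes, 74.4% of the receptor genes and 9.11% of genes of no listed family were inside, and with the 100 lowest it was 0. Of the 242 neuronal genes, 67 are protocadherins that lie in 10 bins, and the 66 were not divided by family. They are therefore not read as a trait of neuronal genes in general. Deserts held 714 of 1128 odorant receptor genes (63.3%), 153 of 208 Vmn1r genes (73.6%), 95 of 121 Vmn2r genes (78.5%), 24 of 53 taste and trace amine receptors (45.3%) and 11 of 27 formyl peptide and Mas-related receptors (40.7%). The family lists were drawn up with earlier results of these data known, so these shares are counts and carry no test.

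The odorant receptor bins were not the lowest. The bin with most of them, chr7:103000001-104000000, held 51 odorant receptors among 58 protein-coding genes. Its 5hmC levels were 0.0737, 0.0846 and 0.0724 in cortex, 0.0333, 0.0387 and 0.0389 in the olfactory bulb and 0.0206, 0.0234 and 0.0248 in cerebellum, and the 3 tissues did not overlap. The bin with most Vmn1r genes, chr13:22000001-23000000, read 0.0776, 0.0876 and 0.0765 in cortex and 0.0234, 0.0260 and 0.0278 in cerebellum. The bin with most Vmn2r genes, chr17:18000001-19000000, lay far lower, with 0.0178, 0.0213 and 0.0210 in cortex and 0.0117, 0.0151 and 0.0166 in cerebellum. Bitter taste receptors, among them Tas2r117 and Tas2r102, filled chr6:132000001-133000000, with 0.0344 to 0.0368 in cortex and 0.0157 to 0.0184 in cerebellum.

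Genes for secreted proteins and detoxifying enzymes formed another group. Deserts held 28 of 34 secretoglobins, 46 of 66 defensins, 17 of 34 major urinary proteins and lipocalins, 35 of 81 cytochrome P450 genes of the listed subfamilies, 19 of 43 glucuronosyl- and sulfotransferases and 12 of 60 serpins. The bin of 32 defensin genes, chr8:21000001-22000000, read 0.0416, 0.0417 and 0.0382 in cortex and 0.0289, 0.0331 and 0.0296 in the olfactory bulb. The bin of the major urinary proteins, which carry pheromones in mouse urine (chr4:60000001-61000000), read 0.0493 to 0.0603 in cortex and 0.0220 to 0.0254 in cerebellum. The bin of Cyp2c29 and Cyp2c39, liver enzymes of drug and fatty acid metabolism (chr19:39000001-40000000), read 0.0366, 0.0437 and 0.0375 in cortex and 0.0127, 0.0184 and 0.0192 in cerebellum.

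Barrier, immune, placental and germ-line genes made up most of the remainder of the listed families. All 21 pregnancy-specific glycoproteins and placental cathepsins lay in deserts, as did 35 of 36 genes for the cornified envelope of skin. Those 35 shared the bin chr3:92000001-93000000, which read 0.104 to 0.123 in cortex and 0.0314 to 0.0321 in cerebellum. Deserts also held 34 of 56 lectin-like receptors, 8 of 17 Skint and butyrophilin-like genes and 34 of 50 germ-line genes of the Speer, Pramel, oocyte Nlrp, Obox and Zscan4 families. In contrast, 0 of 25 prolactin family genes, 0 of 110 keratins and keratin-associated proteins and 0 of 39 Hox genes were in deserts, although the first 2 are also tandem arrays of genes that act outside the brain. The zinc finger genes, many of which repress transposable elements, had 117 of 397 in deserts (29.5%), 23 of them in chr13:67000001-68000000. Of 21 enzymes and readers of DNA methylation, 2 lay in deserts, the testis genes Mbd3l1 and Mbd3l2.

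Antigen receptor segments, which are annotated apart from protein-coding genes, were in deserts in 372 of 636 cases (58.5%). The loci differed: 207 of 209 immunoglobulin heavy chain segments, 107 of 165 kappa segments, 8 of 8 lambda segments and 50 of 51 T cell receptor beta segments were inside, and 0 of 188 alpha segments, 0 of 5 gamma segments and 0 of 10 delta segments were. Some of these counts lay close to the threshold, since the beta chain bin chr6:41000001-42000000 had rank 198 and chr14:53000001-54000000, with alpha segments, had rank 202. The best ranked of these bins, in the heavy chain locus, was 11th from the bottom.

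**Figure D3:**
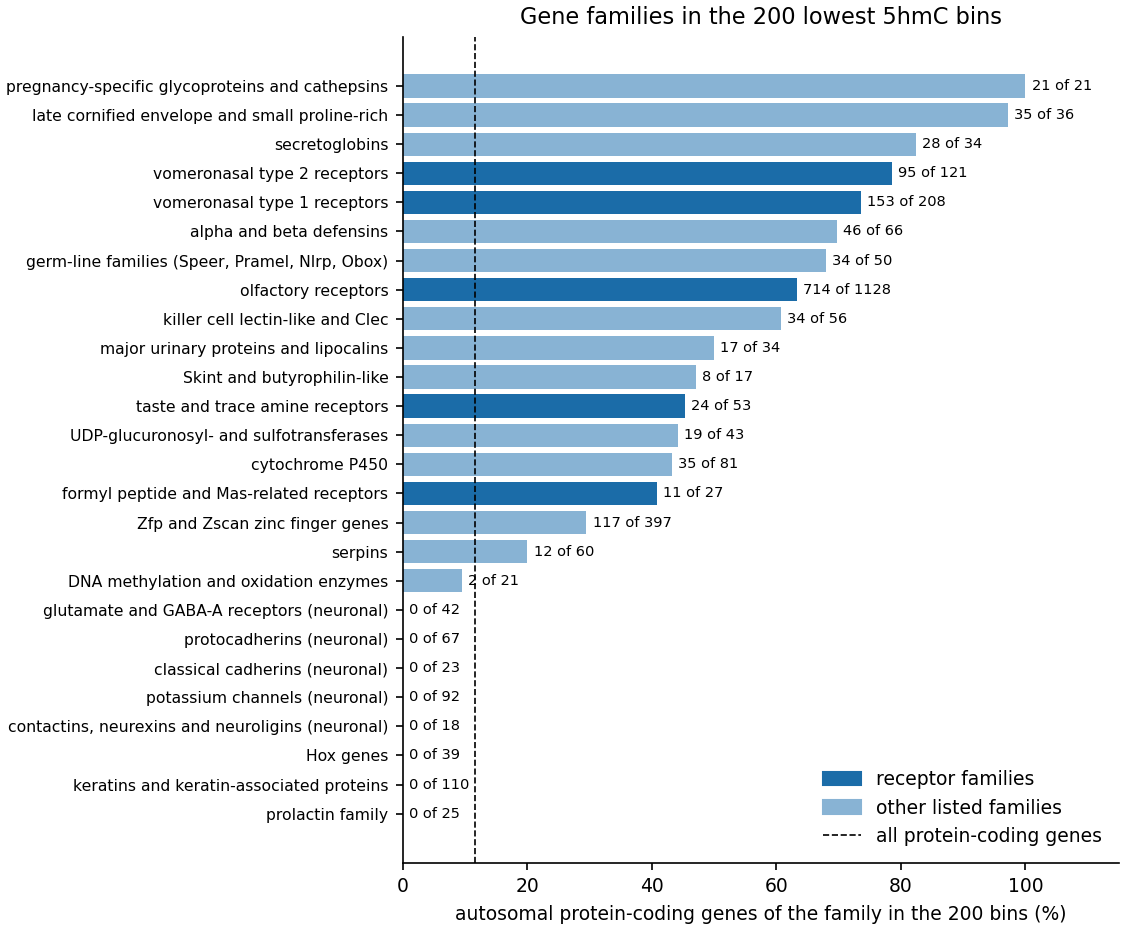
Bars give the percent of the autosomal protein-coding genes of each listed family with at least 10 genes whose midpoint lies in a desert, and the dashed line gives that of all protein-coding genes (11.6%). The pregnancy-specific glycoproteins with cathepsins (100%) and the cornified envelope genes (97.2%) stand at the top, and the neuronal families, keratins, prolactins and Hox genes stand at 0%.

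The deserts shared features of sequence that the choice did not use. The median number of CpG sites per kb was 5.73 in the deserts and 8.39 in the other autosomal bins, GC content was 39.1% against 42.0%, and the ratio of observed to expected CpG was 0.149 against 0.189. Repeats masked in the reference covered a median of 48.7% of a desert and 30.8% of another bin, and 168 deserts (84%) exceeded the 90th percentile of the other bins. The share of sampled 128-base words that occurred elsewhere in the genome had a median of 9.0% against 3.0%, and 37 deserts passed 30% against 10 other bins. A read that lies within such words cannot be placed by its own sequence alone. The reads were paired, and how much of these bins was left unread was not measured. The deserts had more genes but less gene length: a median of 8.5 protein-coding genes against 5, and 14.6% of the bin within such genes against 45.6%. Both extremes of gene number were present, since 46 deserts (23%) had no protein-coding gene midpoint against 10.1% of other bins, and 91 (45.5%) had 10 or more against 29.6%. In 18 deserts less than 90% of the bases were sequenced.

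The low 5hmC came with high 5mC in cortex and olfactory bulb, a direction that was not particular to the deserts. Across the 2213 other bins mean 5hmC and mean 5mC had a Spearman rho of -0.679. Across the 200 deserts rho was 0.273. Bins of the same libraries are not independent replicates. Over the 1937 bins of 100 kb inside the deserts that could be used, the mean 5mC level was 0.732 ± 0.015 in cortex (SD, n = 3), 0.759 ± 0.0021 in the olfactory bulb (n = 2) and 0.742 ± 0.011 in cerebellum (n = 2). The 22074 bins of 100 kb in the other autosomal 1 Mb bins had 0.669 ± 0.015, 0.700 ± 0.0034 and 0.732 ± 0.012. The desert level was higher by 0.0632 ± 0.0039 in cortex, by 0.0592 ± 0.0055 in the olfactory bulb and by 0.0109 ± 0.00095 in cerebellum, with each of the 7 libraries showing the same direction. Without cortex replicate 3 the cortex difference was 0.0633. In cerebellum the sign depended on the summary: the difference of the medians over 100 kb bins was -0.00484. Few desert bins were poor in 5mC, with 3.92% of their 100 kb bins under 0.6 in cortex against 18.6% elsewhere, and 2.79% against 9.03% in cerebellum. No p is given for these means because the bins were chosen with earlier results of the same data known.

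The cerebellum divided the deserts by depth. Across the 50 lowest bins the mean 5mC was 0.739 ± 0.015 in cortex and 0.757 ± 0.0027 in the olfactory bulb but 0.707 ± 0.011 in cerebellum. Relative to the other autosomal bins these were 0.0705 ± 0.0043 and 0.0568 ± 0.0061 higher and, in cerebellum, -0.0244 ± 0.00075, with -0.0249 and -0.0239 in its 2 libraries. The cerebellum difference was 0.00279 in ranks 51 to 100, 0.0310 in ranks 101 to 150 and 0.0346 in ranks 151 to 200, while that of cortex stayed between 0.0547 and 0.0705. The cerebellum minus cortex difference was thus -0.0323 ± 0.018 in the 50 lowest bins and 0.0626 ± 0.019 in the other autosomal bins. Without cortex replicate 3 these were -0.0407 ± 0.012 and 0.0541 ± 0.012, and the difference was -0.00452 in ranks 51 to 100, 0.0182 in ranks 101 to 150 and 0.0341 in ranks 151 to 200. Across the 200 deserts mean 5hmC and the cerebellum minus cortex difference in 5mC had a Spearman rho of 0.799 and a Pearson r of 0.834. Across the 2213 other bins rho was 0.0281 and r was 0.0164. Without cortex replicate 3, rho and r were 0.797 and 0.830 in the deserts and 0.0204 and 0.0149 in the other bins. These are correlations across bins of the same libraries, which are not independent replicates. Mean 5hmC is also the value that chose and ranked the bins, and 5hmC and 5mC are fractions of the same cytosines. From ranks 1 to 50 to ranks 151 to 200, 5hmC went from 0.0318 to 0.107 in cortex and from 0.0177 to 0.0457 in cerebellum. How much of the trend in 5mC mirrors this was not tested. The division into groups of 50 ranks was made after the values were seen.

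**Figure D4:**
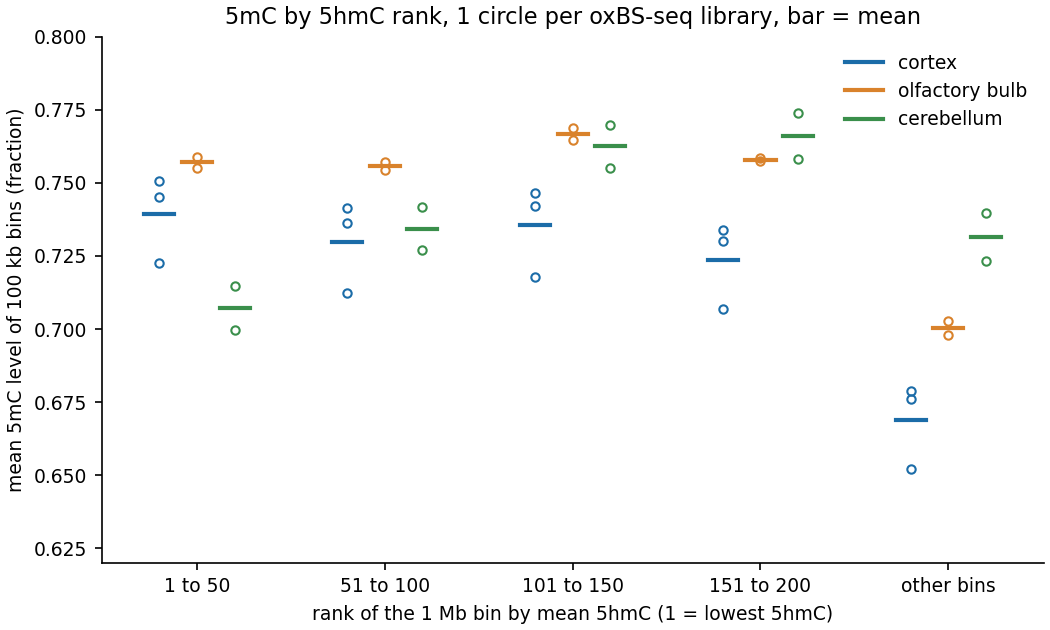
Mean 5mC level (fraction) of the 100 kb bins in groups of 50 deserts by 5hmC rank and in the other autosomal bins, with 1 circle per oxBS-seq library and a bar at the tissue mean; the axis does not start at 0. In cerebellum the mean is 0.707 in ranks 1 to 50 and 0.766 in ranks 151 to 200, and in cortex it stays between 0.724 and 0.739.

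The tissues were compared for 5mC with limma on the log2 ratio of methylated to unmethylated fraction in 25664 bins of 100 kb, with Benjamini-Hochberg adjustment over all of them. Between cerebellum and cortex, 694 of the 1937 desert bins were higher in cerebellum (35.8%; 71.9% of all bins tested) and 398 were lower (20.5%; 4.44% of all bins tested). Between cerebellum and olfactory bulb, 111 were higher (5.73%; 35.3% of all) and 595 lower (30.7%; 7.69% of all). Between olfactory bulb and cortex, 641 were higher in the olfactory bulb (33.1%; 37.6% of all) and 7 lower (0.361%; 2.18% of all). The share lower in cerebellum was thus several times that of all bins, and the share higher in the olfactory bulb than in cortex rose with rank, from 12.9% in ranks 1 to 50 over 29.5% and 41.4% to 48.8% in ranks 151 to 200.

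The calls changed with the rank, which rests on the 5hmC that chose the bins. In the 50 lowest deserts 288 of 496 bins were lower in cerebellum than in cortex (58.1%; 4.44% of all) and 12 were higher (2.42%; 71.9% of all). Against the olfactory bulb, 361 were lower in cerebellum (72.8%; 7.69% of all) and 1 was higher (0.202%; 35.3% of all). In ranks 51 to 100, 15.1% were lower and 20.6% higher than in cortex. In ranks 151 to 200 these were 3.02% and 69.4%, near the 4.44% and 71.9% of all bins. The median change of all bins was 0.43 (log2) between cerebellum and cortex, 0.19 between cerebellum and olfactory bulb and 0.22 between olfactory bulb and cortex. That of the desert bins was 0.10, -0.14 and 0.21. When each library was centred on its median, which sets these shifts to about 0, the desert bins called between cerebellum and cortex were 95 higher (4.90%; 25.7% of all) and 1142 lower (58.96%; 24.3% of all). Those between cerebellum and olfactory bulb were 35 higher (1.81%; 22.1% of all) and 1146 lower (59.2%; 21.3% of all), and those between olfactory bulb and cortex 75 higher (3.87%; 8.81% of all) and 59 lower (3.05%; 9.90% of all). Those lower in cerebellum than in cortex then numbered 472 of 496 in the 50 lowest deserts (95.2%; 24.3% of all).

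Single libraries moved these counts. The desert bins lower in cerebellum than in cortex were 10.1% without cortex replicate 1, 6.45% without cerebellum replicate 2 and 28.9% without cortex replicate 3, when 2.92%, 2.17% and 6.10% of all bins were. Those higher in cerebellum than in cortex were 21.0% without cerebellum replicate 1 (54.1% of all). Those lower in cerebellum than in the olfactory bulb were 17.2% without olfactory bulb replicate 1 (4.27% of all), 11.1% without olfactory bulb replicate 2 (4.10% of all) and 11.1% without cerebellum replicate 2 (3.66% of all). Those higher were 2.58% without olfactory bulb replicate 1 (22.9% of all), 2.48% without olfactory bulb replicate 2 (20.1% of all) and 1.55% without cerebellum replicate 1 (17.0% of all). Those higher in the olfactory bulb than in cortex were 21.0% without cortex replicate 3 (27.1% of all), 9.60% without olfactory bulb replicate 1 (11.8% of all) and 8.62% without olfactory bulb replicate 2 (15.4% of all), and those lower were 0.878% without cortex replicate 3 (2.99% of all). For the 50 lowest deserts the share lower in cerebellum than in cortex ranged from 19.6% without cerebellum replicate 2 and 30.4% without cortex replicate 1 to 72.0% without cortex replicate 3, when between 2.17% and 6.10% of all bins were.

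**Figure D5:**
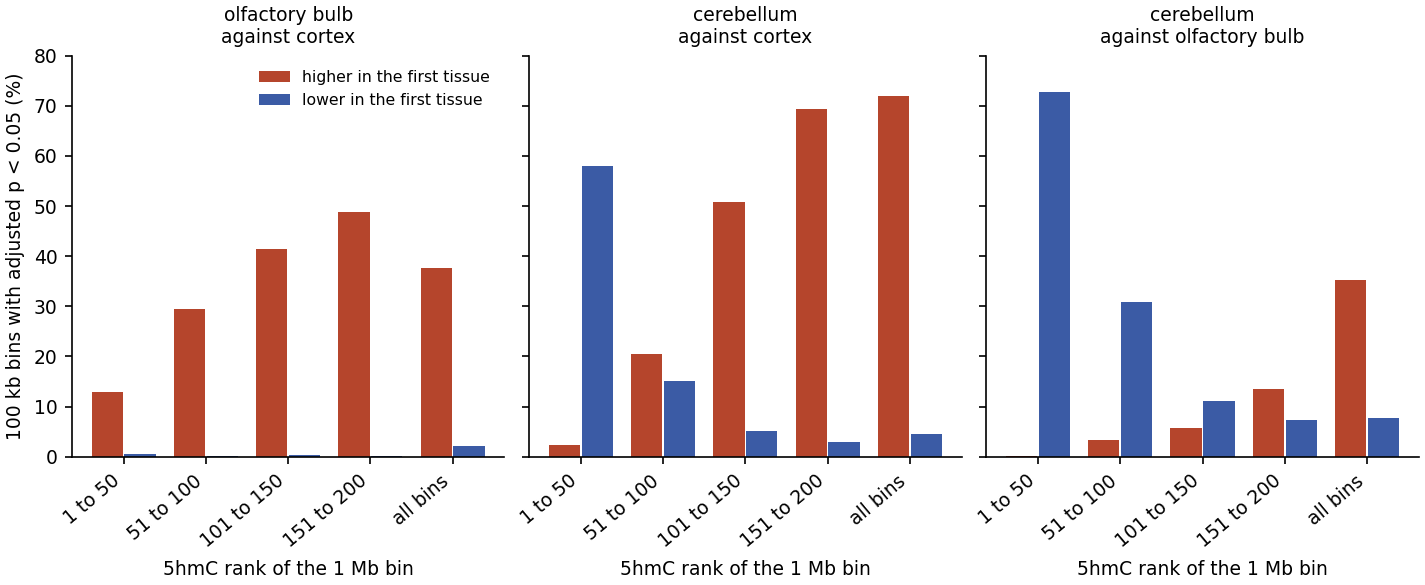
Percent of 100 kb bins with higher or lower 5mC (limma, adjusted p under 0.05) for each pair of tissues in groups of 50 deserts by 5hmC rank, with the percent over all 25664 bins tested. The share lower in cerebellum than in cortex is 58.1% in ranks 1 to 50 and 3.02% in ranks 151 to 200, against 4.44% of all bins.

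The repeated share of a bin moved with its 5hmC rank, and the 5mC values were therefore also taken apart by it. In the 50 lowest deserts, the 18 bins with at most 10% repeated words had a cerebellum minus cortex difference in 5mC of -0.0301, and 60.6% of their 100 kb bins were lower in cerebellum than in cortex. The 32 bins with more than 10% had -0.0335 and 56.7%. The 117 deserts of all ranks with at most 10% had 0.0228, with 12.9% lower, and the 83 others had -0.00782, with 31.6% lower. Of all 100 kb bins tested, 4.44% were lower in cerebellum than in cortex. With cortex replicate 3 left out the differences were, in the same order, -0.0379, -0.0423, 0.0145 and -0.0169.

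Single deserts of the lowest 10 were tested on their 1 Mb mean of 5mC. All 10 were lower in cerebellum than in cortex, with log2 changes of the ratio between -0.24 and -0.45 and adjusted p from 1.26e-07 to 0.00572 in limma. Of all 2581 bins of 1 Mb tested, 3.02% were lower in cerebellum than in cortex, and of the 200 deserts 21.5% were. The share of repeated words in the 10 lowest deserts ran from 4.5% to 89%, and how much of them was left unread was not measured. In the lowest bin, chr7:22000001-23000000, with 89% repeated words, 5mC was 0.751, 0.756 and 0.708 in cortex, 0.758 and 0.756 in the olfactory bulb and 0.702 and 0.689 in cerebellum. Both cerebellum libraries lay below all others, and the change against cortex was -0.31 (SE 0.0835, limma adjusted p = 0.000335). The Skint bin chr4:113000001-114000000, with 4.5% repeated words, read 0.722, 0.712 and 0.708 in cortex, 0.717 and 0.724 in the olfactory bulb and 0.675 and 0.653 in cerebellum, a change against cortex of -0.33 (SE 0.0835, limma adjusted p = 9.48e-05). The largest of the 10 changes, -0.45, was in the secretoglobin bin chr7:32000001-33000000, with 68.5% repeated words. In chr7:21000001-22000000 the 2 cerebellum libraries differed, with 0.697 and 0.754, and without cerebellum replicate 1 the change was -0.08 (limma adjusted p = 0.498).

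Among bins of 100 kb called by limma whose libraries did not overlap between the tissues compared, those with the largest changes between cerebellum and cortex are given here. At chr7:20600001-20700000, which holds Vmn1r107, 5mC was 0.738, 0.796 and 0.759 in cortex, 0.728 and 0.712 in the olfactory bulb and 0.633 and 0.574 in cerebellum, and the change from cortex to cerebellum was -1.10 (log2, SE 0.118, limma adjusted p = 5.03e-18). The cerebellum libraries lay below all others. At chr7:14200001-14300000, with the sulfotransferase gene Sult2a6, 5mC was 0.756, 0.776 and 0.718 in cortex and 0.669 and 0.654 in cerebellum, a change of -0.62 (limma adjusted p = 5.77e-07). At chr7:9700001-9800000, with Vmn2r46, cortex read 0.832, 0.867 and 0.932 and cerebellum 0.786 and 0.772. That change, -1.11, was called by limma (adjusted p = 2.54e-17) but not with an intensity trend and robust variances (limma adjusted p = 0.107). In the other direction, at chr13:68800001-68900000 in Adcy2, an adenylyl cyclase of neurons, 5mC was 0.641, 0.611 and 0.653 in cortex, 0.636 and 0.634 in the olfactory bulb and 0.791 and 0.791 in cerebellum, a change of 1.12 (limma adjusted p = 9.2e-19). The adjacent chr13:68900001-69000000, also in Adcy2, had 0.568, 0.550 and 0.556 in cortex, 0.520 and 0.528 in the olfactory bulb and 0.725 and 0.700 in cerebellum. Both cerebellum libraries were above all others in each of these bins of the desert ranked 200. At chr9:36900001-37000000, with the homeobox gene Pknox2, cortex read 0.542, 0.542 and 0.457 and cerebellum 0.699 and 0.673, a change of 1.05 (limma adjusted p = 1.16e-16).

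The bin chr8:129300001-129400000 had the largest change of these, 1.66 between cerebellum and cortex, and held only 3 CpG sites. Between olfactory bulb and cortex the largest increases besides that bin were 0.67 at chr14:3300001-3400000, with Gm2956, and 0.70 at chr19:9900001-10000000, with Best1 and Fth1, a chloride channel and the ferritin heavy chain. In the latter, cortex read 0.530, 0.568 and 0.535 and olfactory bulb 0.673 and 0.647 (limma adjusted p = 2.08e-07). The decreases there, -0.38 at chr2:176900001-177000000 and -0.34 at the Vmn1r107 bin, were not called when olfactory bulb replicate 1 or 2 was left out (limma adjusted p from 0.0741 to 0.194). Between cerebellum and olfactory bulb the largest decreases were -0.92 at chr12:23900001-24000000, -0.85 at chr7:22100001-22200000 with Vmn1r143, and -0.75 at the Vmn1r107 bin.

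The lowest 5mC in the deserts was at blocks of 100 kb on chromosomes 13 and 17. Some of these blocks lay in 1 Mb deserts that were themselves low in 5mC. The lowest 100 kb bin, chr13:120000001-120100000 with the gene models Gm21188 and Gm36079, had 0.110 ± 0.016 in cortex, 0.109 ± 0.0089 in the olfactory bulb and 0.110 ± 0.015 in cerebellum. The next, chr17:39800001-39900000, had 0.167, 0.196 and 0.157. No protein-coding gene was listed in this block itself. It lies in the 1 Mb bin that also holds the Esp genes, where 5hmC varied between cerebellum libraries. After these came chr13:23500001-23600000 and chr13:23400001-23500000, which had 0.211, 0.232 and 0.256 and 0.301, 0.319 and 0.344. The former holds replication-dependent histone genes such as Hist1h2be and Hist1h1d, and the latter the butyrophilin gene Btn2a2. The last of the 5 lowest, chr13:22000001-22100000, with Prss16 and Hist1h4i beside Vmn1r188, had 0.347, 0.365 and 0.396. Among 1 Mb deserts the highest 5mC was at the partly sequenced chr16:98000001-99000000, with 0.836, 0.864 and 0.80 in cortex and 0.869 and 0.856 in cerebellum. The lowest was at chr13:23000001-24000000, with 0.552, 0.547 and 0.525 in cortex and 0.592 and 0.583 in cerebellum.

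Gene content divided the deserts by 5mC. The 60 deserts with 0 or 1 protein-coding gene had 5mC of 0.753 ± 0.014 in cortex, 0.788 ± 0.0027 in the olfactory bulb and 0.788 ± 0.011 in cerebellum. The 51 deserts with 3 or more chemosensory-type receptor genes had 0.728 ± 0.015, 0.752 ± 0.0029 and 0.722 ± 0.0096, and the 30 with 3 or more genes of another listed family had 0.732 ± 0.016, 0.752 ± 0.0025 and 0.720 ± 0.0098. The remaining 59 deserts had 0.713 ± 0.016, 0.740 ± 0.00088 and 0.7255 ± 0.011. The cortex levels of these groups without replicate 3 were 0.761, 0.737, 0.742 and 0.722. The cerebellum level of gene-poor deserts was thus above that of each other group by more than the SD between libraries, so the contrast is not particular to receptor deserts. Gene-poor deserts were also the less deep ones, with a median rank of 137.5 against 68 for receptor deserts, and 19 of the 50 lowest bins were receptor deserts against 10 that were gene-poor.

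The part of cytosine that was neither 5mC nor 5hmC, called the unmodified rest, was taken as 1 minus the mean 5mC minus the mean 5hmC of a bin. It includes the rarer oxidized forms and any error of either assay, and low 5hmC enters it directly. In the deserts it was 0.192 ± 0.016 in cortex, 0.187 ± 0.0040 in the olfactory bulb and 0.224 ± 0.010 in cerebellum, with the SDs of the assays combined. In the other autosomal bins it was 0.154 ± 0.018, 0.141 ± 0.0057 and 0.164 ± 0.012. The deserts exceeded the others by 0.0385 in cortex, 0.0460 in the olfactory bulb and 0.0599 in cerebellum. The bins were chosen for low 5hmC, which raises the rest, so this excess is given as a description and was not tested. Without cortex replicate 3 of oxBS-seq the cortex difference was 0.0383. In the 50 lowest deserts the rest reached 0.229, 0.221 and 0.275. It was highest in cerebellum in 182 of the 200 deserts (91%) and in 69.3% of the other bins. 5mC was lowest in cerebellum in 74 deserts (37%) and in 36 of the 2213 other bins (1.63%). Without cortex replicate 3 of oxBS-seq these 4 shares were 94.5%, 78.2%, 47.5% and 2.67%. In the lowest bin, chr7:22000001-23000000, the rest was 0.245 in cortex, 0.230 in the olfactory bulb and 0.291 in cerebellum. The Vmn2r bin chr7:8000001-9000000 had the highest cerebellum rest of the 10 lowest, 0.341, and the partly sequenced chr13:120000001-121000000 had 0.412. Of all modified cytosine in the deserts, 5hmC made up 9.42% in cortex, 6.66% in the olfactory bulb and 4.32% in cerebellum, against 21.0%, 18.5% and 12.5% in the other bins.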

How the data were processed

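TAB-seq and oxBS-seq libraries were mapped uniquely to mm10 with Bismark by the authors, per the submitters' processing notes and the study's methods, and modified sites were called with a binomial model. For each library the authors deposited bin levels, each a fraction between 0 and 1 without counts or coverage, in 1 Mb bins for 5hmC and in 100 kb bins for 5mC. How the sites were combined into a bin level is not given in the sources used here, and the depth is unknown. No correction for incomplete conversion was made here.

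Groups and replicate numbers came from the sample titles, and the numbers in the names of the oxBS-seq library files differ from them. The deserts, the gene families and the other lists were chosen with earlier results of these data known. Bins, sequence features and GENCODE M21 genes (assigned by midpoint) are on GRCm38, and repeated words were 200 sampled 128-base words per bin. 5hmC was described without a test. For 5mC, limma 3.58.1 in R 4.3.3 was fitted to log2(level/(1 - level)) over all 7 oxBS-seq libraries and 25664 bins of 100 kb, or over 1 Mb means for single deserts, with tissue as the only term and a Benjamini-Hochberg adjusted p under 0.05. Of 1958 desert bins of 100 kb, 21 (1.07%) were listed at 0 or 1 in a library and left out, against 0.0724% of the others. limma shared nearly all of its variance between bins, with SEs from 0.117 to 0.146 against cortex, so a p reflects the spread of all bins more than that of its own bin. Replicate numbers were checked as pairs: correlations of deviations were 0.128 to 0.297 between olfactory bulb and cortex in TAB-seq, -0.168 to 0.0733 for the other TAB-seq pairs and -0.0906 to 0.0158 in oxBS-seq, where tissues shared 2 numbers. Whether the numbers pair the libraries could not be settled, and they were not used as pairs. The alternatives changed the ranking, the summary, the scale, the filter, the centring, the number of deserts, the libraries and, after seeing the data, the repeated bins and cortex replicate 3 in means by group.

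The bins named are the 10 lowest deserts, ranks 196 to 205, the 5 longest runs (the other runs as long as the fifth were added after their values were seen), the desert with most genes of each family, the 5 highest and 5 lowest in 5mC, the 3 highest and 3 lowest ratios of cerebellum to cortex 5hmC, the 5 with most genes, the 5 lowest 100 kb bins in 5mC, and the 3 largest increases and decreases of 5mC per pair of tissues among called bins whose libraries did not overlap; of these, a selection is described.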

Additional observations from a re-analysis of the deposited data

Results flagged for a closer look

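In the 50 lowest deserts, 5mC minus that of the other autosomal bins was above 0 in every cortex and olfactory bulb library and below 0 in both cerebellum libraries. The cerebellum difference lay -0.0949 from that of cortex and -0.0812 from that of olfactory bulb. These differences between tissues were not tested, the group of 50 was set after the values were seen, and cerebellum is represented by 2 libraries. At most 10% repeated words in 18 of the 50 bins left the cerebellum minus cortex difference at -0.0301, against -0.0335 in the other 32.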

How the results depend on the processing

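Of the 200 deserts, 152 were also chosen by cerebellum alone and 182 or more by each of the other 7 rankings, and 197 to 200 were without any 1 TAB-seq library. The sign of the cerebellum difference in 5mC was the result that turned: 0.0109 became -0.00484 with medians over 100 kb bins and -0.0125 with the 100 lowest bins, and it was 0.00715 with bins at 0 kept, 0.0254 with weights by CpG sites, 0.0390 with the 400 lowest bins and 0.0263 with deserts over 10% repeated words left out, an alternative chosen after seeing the data. In the order of cortex and olfactory bulb, the 5mC difference was 0.0584 and 0.0529 with medians, 0.0751 and 0.0714 with CpG weights and 0.0682 and 0.0692 with the 400 lowest bins; for olfactory bulb it was also 0.0537 with the 100 lowest and 0.0655 without the repeated deserts. In the order of cortex, olfactory bulb and cerebellum, the difference in the unmodified rest was 0.0615, 0.0683 and 0.0892 with the 100 lowest bins, 0.0148, 0.0195 and 0.0279 with the 400 lowest and 0.0259, 0.0329 and 0.0424 without the repeated deserts; it was 0.0574 in olfactory bulb and 0.0673 in cerebellum with medians, and 0.0554 in cerebellum with CpG weights.

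Desert bins called with each library centred on its median were 3.87% higher and 3.05% lower in olfactory bulb than in cortex (8.81% and 9.90% of all bins), 4.90% higher and 58.96% lower in cerebellum than in cortex (25.7% and 24.3%), and 1.81% higher and 59.2% lower in cerebellum than in olfactory bulb (22.1% and 21.3%). With bins at 0 or 1 kept and all levels limited to just inside that range they were 14.6% and 0% for the first pair (21.6% and 1.53% of all) and 3.63% and 18.6% for the last (26.3% and 5.51%), and with 1 Mb means 56% and 0% for the first pair (60.8% and 0.697%). On the fraction scale 0.155% were lower in olfactory bulb than in cortex (2.33% of all) and 3.20% higher in cerebellum than in olfactory bulb (29.5%), and with trend and robust variances 0.103% were lower in olfactory bulb than in cortex (2.12%). Without the repeated deserts that share was 0% (2.18%) and 12.9% were lower in cerebellum than in cortex (4.44%). A replicate block gave 0.929% lower in olfactory bulb than in cortex (3.18% of all) and 9.09% higher in cerebellum than in olfactory bulb (43.5%) and moved the other 4 counts by under 1.5 times; whether the shared numbers pair the libraries could not be settled. Leaving out 1 library gave ranges of 8.62% to 31.7% and 0.258% to 0.878% for olfactory bulb against cortex, 21.0% to 35.4% and 6.45% to 28.9% for cerebellum against cortex, and 1.55% to 8.36% and 11.1% to 36.96% for cerebellum against olfactory bulb, higher and lower in turn. With the 100 lowest bins 7.42% of protein-coding genes and 2.50% of genes of no listed family were in deserts, and with the 400 lowest 27.3% of neuronal genes and 9.11% of genes of no listed family. The causes of these shifts were not tested. The unknown depth and the 2 libraries of olfactory bulb and cerebellum limit what single bins can show.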
